A study of Mus musculus with 4 samples.

Results

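The E2F and RB family was followed here as 10 genes: E2f1, E2f2, E2f3, E2f4, E2f5, E2f7, E2f8 and the pocket protein genes Rb1, Rbl1 and Rbl2. With earlier results of these data known, they were taken by name and not by a cut-off on their values. They come from 20284 genes that could be named on the array. All 10 were on it, with 13 probes between them, and E2f3, E2f7 and Rbl1 had 2 probes each. Signal well above background was recorded on all 4 arrays for 9 of the 10, the exception being E2f5.

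E2F proteins are transcription factors that, paired with a DP protein, bind the promoters of genes for DNA replication and cell division. E2f1, E2f2 and E2f3 are usually described as activators, E2f4 and E2f5 as repressors that work with pocket proteins, and E2f7 and E2f8 as atypical repressors that bind DNA without a DP partner. Pocket proteins (RB, p107 and p130, encoded by Rb1, Rbl1 and Rbl2) hold E2F in check until cyclin-dependent kinases phosphorylate them in G1. In blood formation the pocket proteins are known to restrain stem cell division, and Rb1, E2f2 and E2f4 are known for their part in red cell maturation.

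Total RNA came from bone marrow cells of female C57BL6 mice aged 8 weeks, sorted into 4 fractions and hybridised to 1 single-colour Agilent array per fraction. The long-term stem cell fraction (LT-HSC) held CD34- c-Kit+ Sca-1+ cells without lineage markers, and short-term stem cells (ST-HSC) carried CD34 in addition. Progenitors were labelled c-Kit+ and lineage-negative. A protocol text shared by all samples calls them Sca-1- and also mentions lineage-positive cells, so their exact gate is uncertain. The differentiated fraction carried lineage markers (Lin+). No genotype other than the strain and no treatment was given, and the number of mice behind each fraction was not given in the sources used here.

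Levels below are log2 signal minus the log2 of the array's own 75th percentile, so that 0 is the 75th percentile and 1 unit is a 2-fold step. Taking the fractions from LT-HSC to Lin+ cells, that percentile was an intensity of 192, 217, 137 and 230, and 40.9% to 45.9% of probes were well above background. With 1 array per fraction there was no replicate check and no test. The ± values are the spot error given by the scanner software, which describes 1 spot's measurement and covers neither the spread between mice nor that between sorts. A difference of at least 2-fold (1 on the log2 scale) was counted as higher or lower, and neighbouring levels closer than 2 spot errors are described as not apart. A list of 10 stem cell markers included Kit, Ly6a (Sca-1) and Cd34, on which the cells were sorted. Of these 10 markers, 10, 6, 7 and 5 were well above background in that order. Mecom, Fgd5 and Hoxb5 were above it in LT-HSC only, while Ly6a was at 4.52 in LT-HSC and 4.51 in Lin+ cells. Cd34 gave 7.34, 8.53, 7.51 and 3.26, so its RNA was also high in the CD34- fraction. In sorted mixtures such as these, fewer cells of a type and less RNA per cell cannot be told apart.

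E2f2 and Rb1 stood highest in Lin+ cells, by 4.56 ± 0.20 and 2.56 ± 0.21 over progenitors. E2f2, E2f7, E2f8 and Rbl1 were already at least 2-fold higher in ST-HSC than in LT-HSC, E2f7 and Rbl1 with their brighter probe only. Rbl2 was highest in LT-HSC, E2f5 was well above background in the stem cell fractions only, and E2f3 was lowest in Lin+ cells. E2f1 had its highest level in progenitors, a lead over Lin+ cells that fell below 2 spot errors with 4 of 5 other scalings. E2f4 stayed within 2-fold across the 4 fractions.

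**Figure D1:**
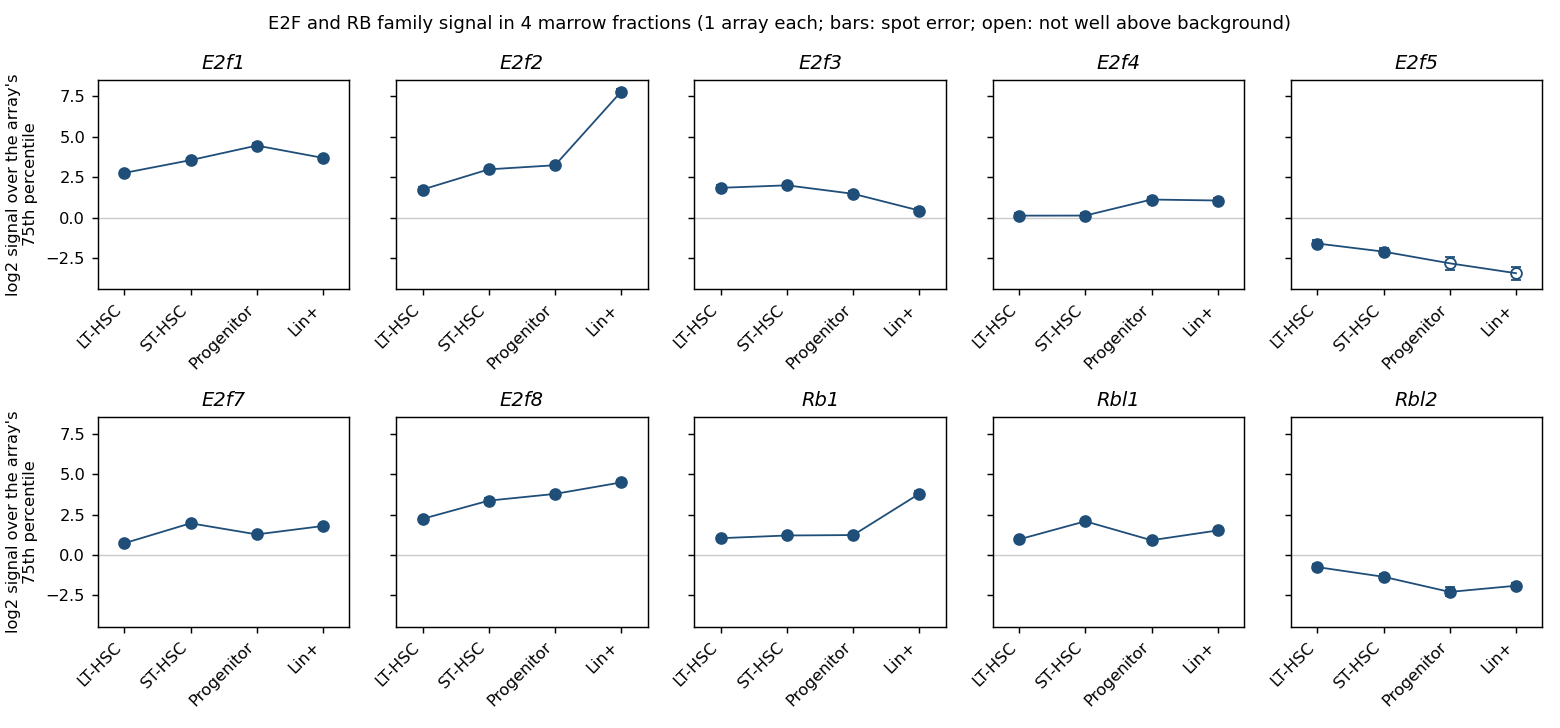
Level of each of the 10 genes (y axis, log2 signal relative to that array's 75th percentile) for LT-HSC, ST-HSC, progenitors and Lin+ cells (x axis), 1 array each, from the brighter probe where a gene has 2. Bars are the spot error and open circles mark E2f5 values not well above background; E2f2 reaches 7.80 in Lin+ cells, and Rb1 reaches 3.79 there after 3 levels between 1.04 and 1.23.

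In ST-HSC against LT-HSC, 4 of the 10 members passed 2-fold upwards and 0 passed it downwards, and their median difference was 0.48. Over all 12621 genes compared, 5.81% were at least 2-fold higher, 9.01% were at least 2-fold lower and the median was 0.02. The 4 were E2f2 at 1.25 ± 0.20, E2f7 at 1.23 ± 0.21, E2f8 at 1.13 ± 0.20 and Rbl1 at 1.12 ± 0.21. For E2f7 and Rbl1 this rests on the brighter probe. Their dimmer probes gave 0.49 ± 0.29 and 0.57 ± 0.22, and the mean over both probes gave 0.86 and 0.84. The other 6 genes lay between -0.60 and 0.79, so the members just inside and just outside the 2-fold mark were Rbl1 and E2f1. With spike-in scaling E2f1 passed it too.

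Because these 4 genes were higher together in ST-HSC, the sequence before their start sites is shown, as 250 bases upstream of the start on the gene's own strand, from RefSeq on build GRCm38.p6. Promoter windows were matched by symbol for 7 of the 10 genes, with 9 windows in all. Rb1, E2f4 and E2f5 were not matched. Capitals mark a match to an E2F site form or to the CHR element of cell cycle promoters (TTTGAA), on either strand. The E2F forms were TTTCCCG (both inner letters C), then TTTCGCG (inner letters C and G), then TTTGCCG (inner letters G and C) and last TTTGGCG (both inner letters G). They were searched after the genes' values were known.
Rbl1 (chr2:157204535-157204784, minus strand): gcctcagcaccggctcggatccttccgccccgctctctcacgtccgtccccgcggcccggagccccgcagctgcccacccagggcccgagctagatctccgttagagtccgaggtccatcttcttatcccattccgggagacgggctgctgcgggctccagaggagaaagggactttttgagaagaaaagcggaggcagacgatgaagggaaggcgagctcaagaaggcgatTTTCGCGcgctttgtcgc
E2f2 (chr4:136172024-136172273, plus strand): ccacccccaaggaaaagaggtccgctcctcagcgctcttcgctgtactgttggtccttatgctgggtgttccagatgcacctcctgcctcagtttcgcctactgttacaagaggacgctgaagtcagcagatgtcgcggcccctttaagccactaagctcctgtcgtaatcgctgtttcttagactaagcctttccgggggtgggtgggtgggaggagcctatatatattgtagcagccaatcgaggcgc
E2f7 (chr10:110745189-110745438, plus strand): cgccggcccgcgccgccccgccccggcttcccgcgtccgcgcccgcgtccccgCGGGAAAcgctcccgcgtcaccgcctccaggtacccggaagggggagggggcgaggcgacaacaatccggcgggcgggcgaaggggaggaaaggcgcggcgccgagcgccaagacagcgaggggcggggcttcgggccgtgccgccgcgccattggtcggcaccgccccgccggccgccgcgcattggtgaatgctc
E2f8 (chr7:48881597-48881846, minus strand): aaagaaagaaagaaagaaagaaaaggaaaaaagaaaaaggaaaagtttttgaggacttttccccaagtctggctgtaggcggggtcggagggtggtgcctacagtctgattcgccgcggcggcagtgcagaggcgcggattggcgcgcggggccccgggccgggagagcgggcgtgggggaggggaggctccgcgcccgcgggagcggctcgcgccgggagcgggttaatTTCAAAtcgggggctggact

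The Rbl1 match lay 18 to 12 bases before the start, and that of E2f7 lay on the opposite strand, within the bases printed in capitals. E2f8 held no E2F form in its window and held a CHR match on the opposite strand, 20 to 15 bases before the start. The E2f2 stretch above has no match, but 2 E2F forms follow its start at bases 25 to 31 and 40 to 46, shown here in 30 bases.
E2f2 after the start (chr4:136172294-136172323, plus strand): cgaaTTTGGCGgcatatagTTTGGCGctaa
For comparison, E2f3, which differed by 0.15 ± 0.20 between the stem cell fractions, also held E2F forms beside its start. One lay 10 to 4 bases before it on the opposite strand and one at bases 4 to 10 after it, and a CHR match lay 23 to 18 bases before it.
E2f3 around the start (chr13:29986050-29986089, minus strand): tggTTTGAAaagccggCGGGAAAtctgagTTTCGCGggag
In windows of 250 bases before to 50 bases after a start, any of the 4 E2F forms occurred in 6.70% of 32851 RefSeq windows and the CHR form in 17.9%. E2f1 had no match to either in its window, and Rbl2 had a CHR match only. The second E2f2 window, at another start, held a CHR match 31 to 26 bases before that start. None of the matches printed here overlap one another. A match is a description of letters, and no match says only that these letters are not in that window.

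Among the activators, E2f1, which drives entry into S phase, gave levels of 2.76, 3.55, 4.46 and 3.69 from LT-HSC through ST-HSC and progenitors to Lin+ cells. It was highest in progenitors and lowest in LT-HSC, and the levels of Lin+ cells and ST-HSC were not apart. Lin+ cells and progenitors were themselves not apart with 4 of the 5 other scalings, which gave differences of -0.37 to -0.16. Its step differences were 0.79 ± 0.20, 0.90 ± 0.20 and -0.76 ± 0.20, each below 2-fold, and over its whole range it differed 3.23-fold.

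E2f2 gave levels of 1.74, 2.99, 3.24 and 7.80 in the same order, from spot intensities of 638, 1722, 1297 and 51235 units. The Lin+ value stood far above the other 3, and the progenitor and ST-HSC values were not apart. Lin+ cells exceeded progenitors 23.6-fold and LT-HSC 66.8-fold. Its range over the 4 arrays was wider than that of 99.2% of the 10624 genes well above background on all of them, and no spot on any array was saturated. Over 5 other scalings the Lin+ difference from progenitors lay between 4.49 and 5.16. The small difference of progenitors from ST-HSC, 0.25 ± 0.20, took the other sign with 2 of them, the 75th percentile of detected probes and the spike-in controls.

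E2f3, an activator needed for the proliferation of many cell types, gave 1.84, 1.996, 1.47 and 0.43 with its brighter probe. The first 3 fractions were not apart from their neighbours in this order of levels, and Lin+ cells were lowest, by -1.04 ± 0.21 from progenitors and -1.41 ± 0.21 from LT-HSC. The first of these is the call nearest the 2-fold mark on its inner side and was under 2-fold with 3 of 5 other scalings, at -0.65, -0.62 and -0.44. The dimmer probe gave -0.82, -0.48, -0.32 and -1.10, also lowest in Lin+ cells, with a difference from progenitors of -0.77 ± 0.22 and from LT-HSC of -0.28 ± 0.23.

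Among the repressors, E2f4, which brings pocket proteins to promoters in resting cells, gave 0.12, 0.12, 1.12 and 1.06. The stem cell fractions formed a lower pair and the other fractions a higher one, and the levels within each pair were not apart. Progenitors exceeded ST-HSC by 0.99 ± 0.21, just outside the 2-fold count, and by 0.37 to 0.95 over the other scalings. Both within-pair differences, 0.0046 and -0.062, take the other sign with 3 and 4 of the 5 other scalings.

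E2f5, the second repressor of this class, gave -1.60 in LT-HSC and -2.11 in ST-HSC and was not well above background in progenitors or Lin+ cells. Lin+ cells were lower than LT-HSC by -1.84 ± 0.46, a 3.57-fold difference. It is counted as a bound, because the Lin+ value used, -3.44, was not well above background. With normexp background correction that difference was -0.84 on the log2 scale, under 2-fold. The difference of ST-HSC from LT-HSC was -0.50 ± 0.30, less than 2 spot errors.

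The atypical E2f8 gave 2.23, 3.36, 3.78 and 4.49, lowest in LT-HSC and highest in Lin+ cells. Its steps were 1.13 ± 0.20, 0.42 ± 0.20 and 0.71 ± 0.20, and Lin+ cells exceeded LT-HSC by 2.26 ± 0.20, a 4.77-fold difference. The middle step was just over 2 spot errors and was under them with all 5 other scalings, at -0.21 to 0.25, with the other sign under spike-in scaling. The last step was 1.07 to 1.31, past 2-fold, with 4 of the 5 other scalings.

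E2f7, the other atypical member, gave 0.72, 1.96, 1.27 and 1.79 with its brighter probe. ST-HSC and Lin+ cells were high and not apart, with progenitors between them and LT-HSC. Its dimmer probe gave -2.03, -1.54, 0.16 and -1.90, highest in progenitors. The probes therefore disagreed in direction on both steps around the progenitors, with -0.69 ± 0.21 against 1.71 ± 0.23 from ST-HSC and 0.52 ± 0.21 against -2.06 ± 0.24 from progenitors to Lin+ cells. Both probes carry the same transcript accession, and which of them follows E2f7 more closely was not tested.

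**Figure D2:**
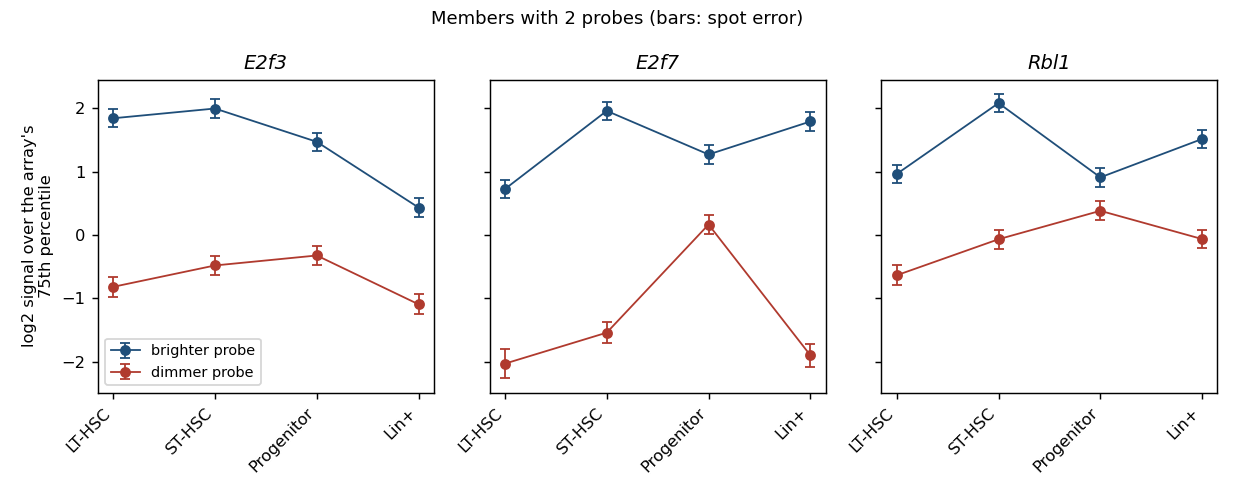
Levels (y axis, log2 signal over the array's 75th percentile) of both probes of E2f3, E2f7 and Rbl1 in the 4 fractions (x axis), 1 array each, with spot error bars; blue is the brighter probe and red the dimmer. The probes of E2f7 and Rbl1 part in progenitors, where the brighter is lower than in ST-HSC and the dimmer is higher, while both E2f3 probes are lowest in Lin+ cells.

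Among the pocket proteins, Rb1, the retinoblastoma gene, gave 1.04, 1.20, 1.23 and 3.79. Its probe was printed 10 times on each array. The 10 spots had intensities of 367 to 406 for LT-HSC, 448 to 529 for ST-HSC, 297 to 346 for progenitors and 2626 to 3398 for Lin+ cells. Every Lin+ spot was thus above every spot of the other arrays. The standard deviation between spots was 0.049, 0.068, 0.061 and 0.11 on the log2 scale. Repeated spots share 1 labelled RNA and are not replicates of a fraction.

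**Figure D3:**
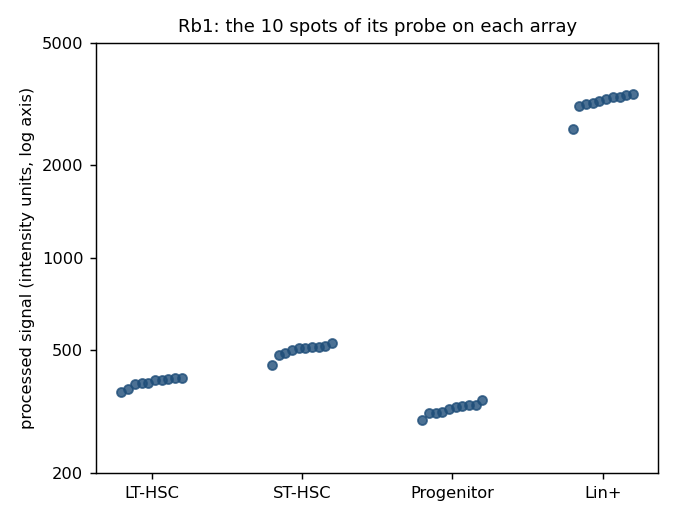
Processed signal (y axis, intensity units before scaling, log axis) of the 10 spots of the Rb1 probe on each of the 4 arrays (x axis), sorted within an array. The Lin+ spots lie from 2626 to 3398 and all other spots from 297 to 529.

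Lin+ cells exceeded progenitors 5.91-fold and LT-HSC 6.76-fold in scaled Rb1 level, a range wider than that of 91.5% of genes above background on all arrays. The first 3 levels were not apart, and the progenitor difference from ST-HSC, 0.026 ± 0.21, took the other sign under all 5 other scalings. Over those scalings the Lin+ difference from progenitors lay between 2.50 and 3.16.

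Rbl1, which encodes p107, a pocket protein made mainly in dividing cells, gave 0.96, 2.08, 0.91 and 1.52 with its brighter probe. ST-HSC were highest, and LT-HSC and progenitors were lowest and not apart. Its difference of progenitors from ST-HSC was -1.17 ± 0.21. A dimmer probe, whose accession is that of another Rbl1 transcript, gave -0.64, -0.07, 0.38 and -0.06, and there progenitors were higher than ST-HSC, by 0.45 ± 0.21. The mean of the 2 probes gave -0.36 for that step.

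Rbl2, which encodes p130, the pocket protein typical of resting cells, gave -0.75, -1.35, -2.29 and -1.91. It was highest in LT-HSC, and the levels of progenitors and Lin+ cells were not apart. Its steps were -0.60 ± 0.24, -0.94 ± 0.33 and 0.38 ± 0.34. Over the other scalings the first step was -0.66 to -0.29, and the smallest of these was less than 2 spot errors. The second step was -1.56 to -0.13 over all settings tried. Lin+ cells were lower than LT-HSC by -1.15 ± 0.25, which was under 2-fold (-0.95 and -0.87) with the median gene at 0 and with spike-in scaling, and -0.68 with normexp. Its intensities of 114, 85.1, 28.1 and 61.4 units were near the background limit of 18.8 to 25.0 units.

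**Figure D4:**
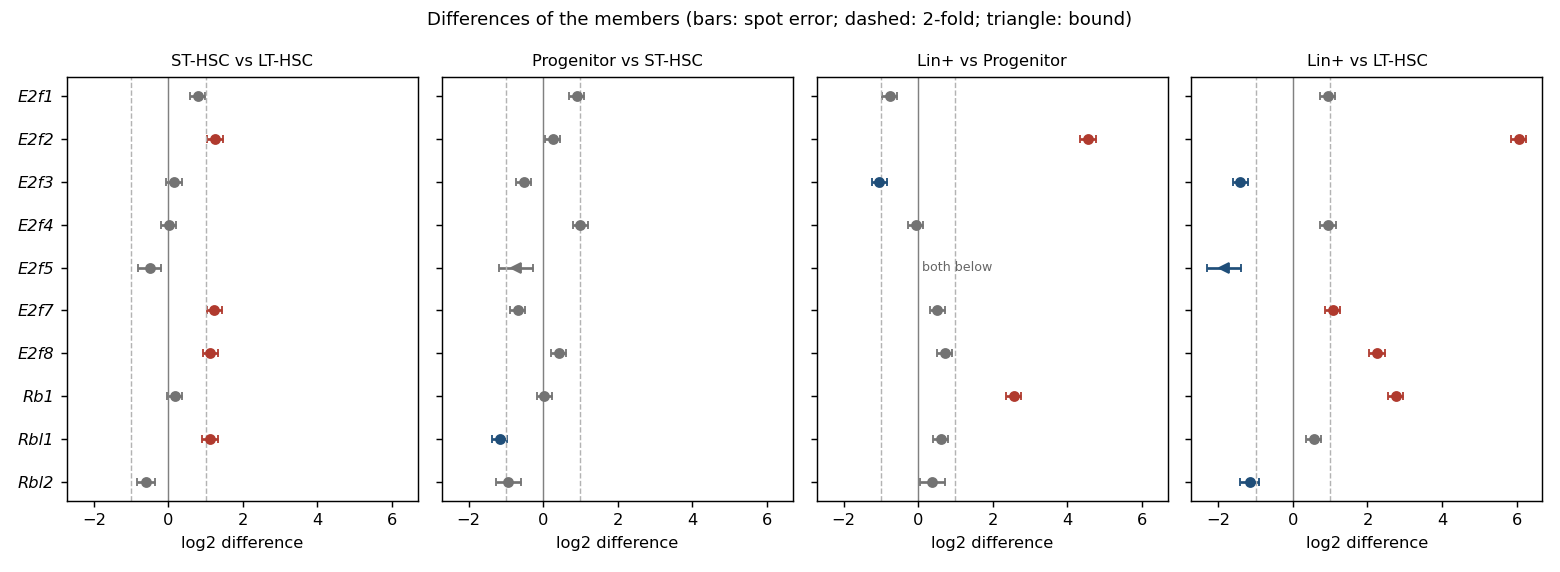
Log2 differences (x axis) of the 10 genes (y axis) in the 4 comparisons, 1 array per fraction, with spot error bars; dashed lines mark 2-fold, red and blue points are at least 2-fold higher or lower, and triangles are bounds. E2f2 and Rb1 lie at 4.56 and 2.56 in Lin+ cells against progenitors, and Rbl1 at -1.17 is the single gene past 2-fold between progenitors and ST-HSC.

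In progenitors against ST-HSC, 0 of the 10 genes were at least 2-fold higher and 1, Rbl1, was lower, with a median of -0.25. Among all 12614 genes compared 10.0% were higher, 10.2% were lower and the median was 0.17. This comparison shares the ST-HSC array with the one before it, and the next shares the progenitor array. The count of lower members moved from 1 to 5 with spike-in scaling, with which E2f3, E2f5, E2f7 and Rbl2 also passed 2-fold, and it was 0 with the mean of all probes. The share of higher calls among all genes called, 49.7% here, also depended on the scaling and was 29.7%, 36.7%, 33.1%, 38.9% and 13.9% with detected probes, the array median, the median gene at 0, quantile normalization and spike-in controls.

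In Lin+ cells against progenitors, 2 of 9 genes compared, E2f2 and Rb1, were at least 2-fold higher and 1, E2f3, was lower, with a median of 0.52. E2f5 was below background on both sides and was not compared. Over all 12990 genes 14.5% were higher, 26.4% were lower and the median was -0.33. With spike-in scaling 5 members were higher, E2f7, E2f8 and Rbl1 joining the first 2, and 0 were lower. The share of higher calls among all genes called was 35.4% here and 58.5%, 31.9%, 60.2%, 45.6% and 71.0% with those 5 scalings.

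From end to end, in Lin+ cells against LT-HSC, 4 of 10 genes were higher (E2f2, Rb1, E2f8 and E2f7) and 3 were lower (E2f5, E2f3 and Rbl2), with a median of 0.93. The background was 16.1% higher and 23.2% lower over 13285 genes, with a median of -0.15. E2f7 at 1.07 ± 0.21 was the nearest inside the 2-fold mark, and E2f4 and E2f1 at 0.94 ± 0.21 and 0.93 ± 0.20 were the nearest outside it. With the mean of both probes E2f3 and E2f7 left the count, at -0.84 and 0.60, and E2f7 left it too with the array median (0.81) and normexp (0.96). E2f4 and E2f1 each passed 2-fold with 3 of the other scalings, both at 1.004 to 1.22. The share of higher calls, 41.0%, was 30.7%, 51.2% and 55.2% with the array median, the median gene at 0 and spike-in scaling; in ST-HSC against LT-HSC it was 39.2% and moved by over 10 points with spike-in scaling only, to 62.9%.

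The genes that E2F and pocket proteins work with were then followed in lists chosen for their roles, with earlier results of these data known. Of 87 listed symbols 86 were named on the array, all but Skp2. The shares over all genes beside which their counts stand are 5.81% higher and 9.01% lower in ST-HSC against LT-HSC, 10.0% and 10.2% in progenitors against ST-HSC, 14.5% and 26.4% in Lin+ cells against progenitors, and 16.1% and 23.2% end to end. Of the DP partners, Tfdp1 gave 1.04, 1.69, 2.60 and 2.32, lowest in LT-HSC. Its Lin+ and progenitor levels, which differed by -0.28 ± 0.20, were not apart, and over the other scalings that difference was -0.35 to 0.32. Tfdp2 gave 0.40, 0.83, 0.53 and 3.61 with its brighter probe, so it stood highest in Lin+ cells, by 3.08 ± 0.21 over progenitors. Its other probe gave 1.19, 1.29, 0.17 and 2.24, also highest in Lin+ cells, and 2.07 ± 0.21 for that difference. Progenitors differed from ST-HSC by -1.12 ± 0.21 with this other probe and by -0.31 ± 0.21 with the brighter. Lin+ cells exceeded LT-HSC by 1.05 ± 0.21 and 3.20 ± 0.21 in the same order. E2f6, a repressor that does not bind pocket proteins, gave 3.29, 3.30, 3.60 and 1.99 and was lower in Lin+ cells than in progenitors by -1.61 ± 0.20.

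Pocket proteins Rbl1 and Rbl2 join E2F and the MuvB core in the DREAM complex, which silences cell cycle genes in resting cells, and MuvB later works with B-Myb (Mybl2) and Foxm1 as an activator. Of 7 such genes, ST-HSC had 3 past 2-fold above LT-HSC and 0 below. They were Foxm1 at 1.60 ± 0.21, Mybl2 at 1.51 ± 0.20 and the core subunit Lin9, whose levels were 0.13, 1.24, 0.32 and 1.07. Another core subunit, Lin54, gave 0.36, 1.31, 0.77 and 1.59, just under 2-fold higher in ST-HSC at 0.96. Lin37 gave 2.28, 2.39, 2.34 and 2.02, Lin52 gave 1.83, 1.69, 1.89 and 2.08, and the histone-binding subunit Rbbp4 gave 6.07, 6.52, 6.96 and 6.61. These last 3 stayed within 2-fold over the fractions. Mybl2 gave 2.80, 4.30, 5.58 and 5.56, and it was the 1 gene of this list past 2-fold in progenitors against ST-HSC, at 1.28 ± 0.20 and at 0.65 to 1.11 over the other scalings. Between progenitors and Lin+ cells 0 of 7 were past 2-fold in either direction, though 3 were higher with 3 of the other scalings, and against LT-HSC 3 were higher.

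Among listed regulators of pocket proteins (cyclins, kinases and Cdc25a), 2 of 9 measured were higher in ST-HSC than in LT-HSC and 0 lower. The 2 were Ccna2 (cyclin A2) at 1.83 ± 0.20 and Cdk6 at 1.20 ± 0.22. Ccne1, which encodes cyclin E1, was the single one past 2-fold in progenitors against ST-HSC, at 2.77 ± 0.20. With spike-in scaling Cdk6, Ccnd2 and Ccna2 were lower there, at -1.41, -1.10 and -1.02, and Cdk6 was lower with the percentile of detected probes also. Against progenitors, Lin+ cells had 2 higher, Ccnd3 (cyclin D3) at 1.57 ± 0.20 and Ccna2 at 1.34 ± 0.20, and 4 were lower, led by Cdk4 at -2.02 ± 0.20 and Cdk6 at -1.91 ± 0.25. Among the inhibitors of these kinases, 1 of 5 compared was higher and 1 lower in ST-HSC than in LT-HSC, with a median of 0.04. The higher was Cdkn2c at 1.07 ± 0.21, and the lower was Cdkn1c, which encodes p57, at -3.11 ± 0.21. In progenitors against ST-HSC 0 of 5 were higher and 1 lower, Cdkn1c at -1.43 ± 0.26, and 2 to 3 were lower over the other scalings. Of 6 inhibitors compared between Lin+ cells and progenitors, 3 were higher and 0 lower in Lin+ cells, with Cdkn2d at 2.04 ± 0.20 and Cdkn2c at 1.52 ± 0.20. The 6 include Cdkn2b, which was well above background in Lin+ cells only and is counted as a bound at 0. Ccne2 and Cdkn2a were not well above background on any array.

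Of 10 corepressors that bind pocket proteins, 1 was higher in ST-HSC than in LT-HSC (Rbbp8, at 1.41 ± 0.20) and 0 lower, near the 5.81% and 9.01% of all genes. Against progenitors, Lin+ cells had 2 higher and 2 lower, also near the shares of all genes, 14.5% and 26.4%; the lower were Rbbp7 at -1.34 ± 0.20 and the histone methyltransferase gene Suv39h1 at -1.25 ± 0.20. With 4 of the 5 other scalings 0 were lower in that comparison. Ubiquitin ligase subunits and regulators that act on this network were higher for 3 of 4 in ST-HSC than in LT-HSC, for 3 of 4 in Lin+ cells than in progenitors, and for 0 of 4 in progenitors than in ST-HSC. Ccnf, which encodes cyclin F, differed by 1.67 ± 0.20 and Fbxo5 by 1.63 ± 0.20 in the first of these, and Fbxo5 by 2.03 ± 0.20 and Fzr1 by 1.57 ± 0.20 in the second.

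Known targets lie downstream. Of 25 E2F targets of G1/S, which serve DNA replication, 15 were at least 2-fold higher and 0 lower in ST-HSC than in LT-HSC, with a median of 1.10; Pola1, a DNA polymerase alpha subunit, was at 2.13 ± 0.20. In progenitors against ST-HSC 3 were higher and 1 lower, with a median of 0.53, among them Rrm2, a ribonucleotide reductase subunit, at 1.04 ± 0.20 and Pola1 at -1.54 ± 0.20; with the other 5 scalings 0 were higher, and with spike-in scaling the median was -0.089. At the last step, to Lin+ cells, 1 was higher, Rrm2 at 1.20 ± 0.20, and 3 were lower, including Chaf1b at -1.27 ± 0.20 and Mcm3 at -1.06 ± 0.20, with a median of -0.52. That median was -0.59 to 0.083 over the other scalings, and with 4 of them 0 replication targets were lower. With the percentile of detected probes, the median gene at 0 and spike-in scaling, 4 were higher. The median of all genes compared was -0.33 here and -0.39 to 0.26 over the other scalings. The median of the replication targets lay below it each time.

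Of 20 DREAM and B-Myb targets of G2/M, which serve mitosis, 17 were higher and 0 lower in ST-HSC than in LT-HSC, with a median of 1.83. Mki67 differed by 3.39 ± 0.20 and the kinetochore motor gene Cenpe by 3.31 ± 0.21. In progenitors against ST-HSC 0 were higher and 6 lower, with Cenpe at -2.48 ± 0.21 and Aurkb at -1.91 ± 0.35 and a median of -0.12. The Aurkb level in progenitors, -2.36, was near that array's background limit of -2.87. At the last step 9 were higher and 0 lower, with Cenpe at 3.15 ± 0.21 and Mki67 at 2.79 ± 0.20 and a median of 0.92, and 9 to 16 were higher over the other scalings. End to end, 17 of the 20 mitotic targets were higher and 1 lower in Lin+ cells than in LT-HSC, and 13 of the 25 replication targets were higher and 0 lower.

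**Figure D5:**
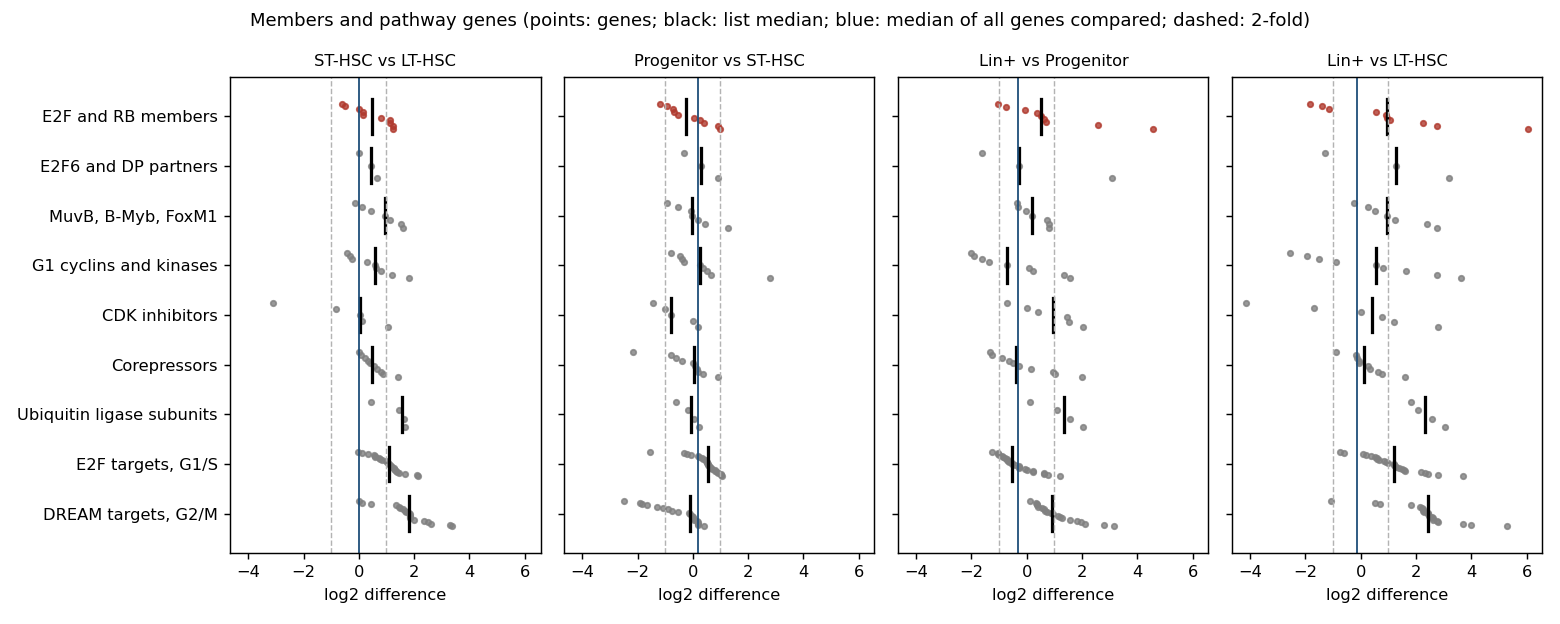
Log2 differences (x axis) of the 10 genes and of 8 lists of partner, regulator and target genes (y axis) in the 4 comparisons. Each point is 1 gene compared, bounds included, with 1 array per fraction. Black bars are list medians, blue lines the median of all genes compared and dashed lines 2-fold. The medians of the G1/S and G2/M target lists are 1.10 and 1.83 in ST-HSC against LT-HSC and -0.52 and 0.92 in Lin+ cells against progenitors, the former being 0.083 with spike-in scaling.

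Differences around the progenitor array also moved with gene length. In progenitors against ST-HSC, the median difference ran from 0.42 over the 2523 genes of shortest genomic span to -0.15 over as many of the longest, and between progenitors and Lin+ cells from -0.56 to 0.00, with genes split by span into 5 groups. Rb1 and E2f3 lie in the longest group, E2f7, Rbl1 and Rbl2 in the next, and E2f1 and E2f4 in the shortest but one. With the median of its group taken off, Rbl1 was still the single member past 2-fold between progenitors and ST-HSC, at -1.19, and between Lin+ cells and progenitors E2f8 came past it, at 1.15. The part of gene length in the members' differences was not tested further.

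Most lists of maturing cell markers had their highest summed signal in Lin+ cells, where E2f2 and Rb1 were also highest. The exceptions at this scaling were the T and NK cell and megakaryocyte lists, whose sums were highest in progenitors. The summed scaled signal of 5 erythroid genes ran 9.86, 0.519, 68.4 and 984 from LT-HSC to Lin+ cells, where Alas2 and Slc4a1, the heme synthesis enzyme and the anion exchanger of red cells, stood at 8.84 and 8.92. Car1, of the same list, was instead at 5.87 in progenitors and 3.95 in Lin+ cells. For 6 neutrophil genes it was 109, 1130, 3566 and 5853, although Mpo and Elane went from 11.6 and 8.73 in progenitors to 10.1 and 7.51. B cell genes gave 18.5, 19.9, 22.1 and 397, and genes of basophils, mast cells and eosinophils gave 2.75, 7.17, 126 and 1046. Of the defining erythroid markers, Alas2 was not well above background in LT-HSC or ST-HSC. In Lin+ cells all 5 erythroid, 6 neutrophil, 6 B cell and 4 basophil, mast cell and eosinophil genes were well above background, against 2, 5, 2 and 1 in LT-HSC. T and NK cell genes gave 41.1, 75.2, 176 and 143, monocyte genes 9.86, 53.3, 150 and 168, and megakaryocyte genes 143, 13.2, 279 and 10.2. In the T and NK cell list, 2 of 6 genes were well above background in progenitors and 6 in Lin+ cells. Nkg7 was at 7.39 and 6.35 in these fractions, while Cd3d, Cd3e, Cd3g, Cd2 and Klrd1 were each highest in Lin+ cells. The part of any of these cell types in the E2f2 and Rb1 levels was not tested.

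The genes whose pattern over the 4 arrays was most like a member's were found by the root mean square distance between patterns, each centred on its own mean, among 10615 genes well above background on all arrays. Each pattern rests on 4 points, and likeness says nothing of shared function or control. For E2f3, E2f7 and Rbl1 only the brighter probe was used. The dimmer probes of E2f7 and Rbl1 differed from it in direction around the progenitors, so likeness for these genes holds for the brighter probe only. E2f1 was followed most closely by Mars2 (0.017), the helicase subunit gene Mcm2 (0.032) and Fkbp2 (0.057). E2f7 was followed by Ezh2 (0.050), and Rbl1 by Ccar1 (0.021) and the replication factor gene Rfc1 (0.055). E2f8 was followed by Kbtbd6 (0.019), Endod1 (0.091) and the centromere histone gene Cenpa (0.092). E2f3 had Sipa1l1 (0.029) nearest, Rbl2 had Lmbrd1 (0.0097) and Rb1 had Chac2 (0.080). E2f2 had no pattern as near, its closest being Atp1b1 (0.30), Wdr62 (0.32) and Mcemp1 (0.34).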

How the data were processed

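Each array was deposited as 1 intensity per spot, linear in scale, which per the file headers had been background-subtracted and spatially detrended. The software was Agilent Feature Extraction 10.7.1.1, per the submitters' processing notes. A value table of the series, deposited by the authors, holds a ratio per probe equal to that signal over 1 constant per array for 100% of 55246 single-spot probes, within 1%. Its column medians were 0.0619, 0.0630, 0.0704 and 0.0738.

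Per the labels' protocols, 10 ng of RNA per fraction was amplified with spike-in controls and labelled with Cy3. Flagged outlier and control spots were left out, spots of a probe were averaged on the log2 scale, and each array was scaled to its 75th percentile (Python 3.11.15, numpy 2.4.6, pandas 2.3.3). Of 55678 probes, 26762 were named by accession through the RefSeq table of GRCm38.p6. The array design is on mm9 per the file headers, so only names and span order were taken from that table. The brighter probe stood for a gene. A value not well above background was set to the higher of itself and the lowest well-above-background signal of its array. A difference with such a value on 1 side is called a bound. All arrays shared 1 slide and its scan, per the file headers; with 1 array each, differences between sorts or labellings cannot be told apart from the fraction. All 10 members are named, the partner genes and MuvB genes also, and up to 2 genes per direction and comparison of each other list. Members, lists and comparisons were chosen with earlier results of these data known. Calling was tested on simulated data. The number of arrays limits the precision. The alternatives were 5 scalings, normexp background correction (R 4.3.3, limma 3.58.1, offset 50), the deposited ratio, the mean of probes, 2 background rules, a span correction and calls at 1.5-fold and 3-fold.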

Additional observations from a re-analysis of the deposited data

How the results depend on the processing

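Of the members' differences recomputed under 11 other settings of signal, scale, probe or background, 308 stayed within 1 spot error, 119 moved by more and 0 that were called changed sign. Some settings could hardly move a difference. The deposited ratio is the same signal over 1 constant per array, and the mean of probes leaves genes with 1 probe as they were. The background rules leave genes well above background on both arrays as they were. Differences not called could change sign, as E2f7 did in progenitors against ST-HSC, from -0.69 to 0.51 with the mean of probes. The 4 higher members of ST-HSC against LT-HSC became 2 with the mean of all probes and 0 at 3-fold, and 1 was lower at 1.5-fold. In progenitors against ST-HSC the 1 lower member became 2 with the percentile of detected probes, with the array median and with the median gene at 0, 5 with spike-in scaling, 4 at 1.5-fold, and 0 with the mean of all probes and at 3-fold, while 2 were higher at 1.5-fold. In Lin+ cells against progenitors the 2 higher members became 4 with the median gene at 0 and at 1.5-fold and 5 with spike-in scaling. The 1 lower member there became 0 with the percentile of detected probes, the median gene at 0, spike-in scaling, normexp, the mean of all probes and 3-fold, and 2 at 1.5-fold. In Lin+ cells against LT-HSC the 3 lower members became 1 with normexp and 1 at 3-fold. The cause of these moves was not tested beyond the setting changed. The median of genes above background on both arrays was 0.03, 0.21, -0.42 and -0.21 in the 4 comparisons, so scaling by it shifts every difference by that much. Normexp was planned on the mean spot signal, was not run on it, and was run on the median spot signal, chosen after seeing the data. Among the members, signal near background limits E2f5 and Rbl2. No paired analysis was possible because each fraction had 1 array.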
